A study of Mus musculus with 6 samples.

Results

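The cytosolic heat shock genes are 10 genes of the chaperone system that folds proteins in the cytosol and nucleus: Hspa1a, Hspa1b, Hspa8, Hsp90aa1, Hsp90ab1, Hsph1, Dnajb1, Hspb1, Bag3 and Hsf1. They were taken by gene name from the deposited gene count table, in which all 10 were found among 56748 genes, and all 10 had enough reads for testing, as had 17146 genes in total. The RNA-seq libraries came from primary osteocytes, the cells embedded in bone matrix, which were isolated from mouse long bones by stepwise enzyme and EDTA digestion and cultured for 7 days. The WT group held 3 libraries from mice that the methods name C57BL/6J for the stimulation and C57BL/6 for the isolation. The cKO group held 3 libraries from Gsdmd fl/fl; DMP1-Cre mice, in which Cre under the promoter of dentin matrix protein 1 (a gene of late osteoblasts and osteocytes) is meant to remove Gasdermin D, the pore-forming protein of pyroptosis. The methods give an age of 7 weeks for the C57BL/6 mice of the isolation protocol and say of the mouse lines that age and sex were matched in the experiments, and a floxed group without Cre was not analysed here. Both groups received lipopolysaccharide (LPS) at 10 ng/mL for 3 h and then aluminum hydroxide at 20 µg/mL for 3 h, so the comparison is between genotypes under stimulation and does not measure a response to it. The sources used here do not say whether the 3 libraries of a group came from separate animals, so p-values measure only the spread between these libraries.

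Heat shock proteins bind unfolded stretches of other proteins and keep them from aggregating. HSP70 proteins work in a cycle driven by ATP: J-domain proteins such as Dnajb1 deliver substrates and start ATP hydrolysis, nucleotide exchange factors such as Hsph1 and Bag3 release them, and HSP90 takes over late folding steps of kinases and steroid receptors. The transcription factor Hsf1 is held inactive by chaperones in unstressed cells and, once released by protein damage, binds heat shock elements in the promoters of the inducible genes.

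Some properties of the libraries bear on every value below. Each library held 39566835 to 49734046 counts. Gsdmd went against the label: it had 609, 699 and 549 counts in the WT libraries and 885, 937 and 1045 in those labelled cKO, that is 13.9 ± 0.339 against 22.5 ± 1.33 counts per 1000000 counts of the library (CPM; SD, n = 3 each), a log2 fold change of 0.69 (edgeR adjusted p = 2.27e-06). This count covers the whole gene, including exons that the floxed allele keeps, so the second group is called "labelled cKO" throughout. Xist, the RNA of the inactive X chromosome, had 0 to 4 counts in the WT libraries and 44817 to 51216 in those labelled cKO, and the Y-linked Ddx3y had 4033 to 5455 and 0 in every library, so the libraries were not matched in sex, and sex and genotype cannot be told apart in any difference given here. Of 16 macrophage markers 15 were tested and all 15 were higher in the libraries labelled cKO, with a summed level of the whole list of 1209.5 to 1364 CPM in WT and 6515 to 6838 CPM in labelled cKO, and Csf1r, the receptor of macrophage growth factor, went from 26.1 ± 1.63 to 235 ± 8.39 CPM. Defining osteocyte markers were at or near 0 in both groups: Sost at 0 counts in all 6 libraries, Dmp1 at 0 to 6 and Mepe at 0 to 2. Of the 10 osteocyte markers 4 were tested, with Pdpn lower (234 ± 7.59 against 193 ± 3.57 CPM), Fam20c higher (73.4 ± 3.05 against 100.3 ± 4.42 CPM), and Ackr3 (327 ± 18.9 and 329 ± 9.68 CPM) and Irx5 not passing, and the list summed to 629.5 to 661 CPM in WT and 615 to 637 CPM in labelled cKO. Of 11 osteoblast markers, 9 were tested, 5 lower and 2 higher, with a summed level of 21805 to 23868 CPM in WT and 15236 to 15791 CPM in labelled cKO. The summed levels of skeletal muscle markers (9.04 to 11.1 and 3.79 to 5.33 CPM) and endothelial markers (12.1 to 13.2 and 20.2 to 22.2 CPM) were low. Of 5 skeletal muscle markers tested, 2 were lower and 1 higher. Of 7 endothelial markers tested, 5 were lower and 2 higher, although their sum was higher in labelled cKO. These counts of markers stand beside 39.3% of all tested genes that passed (edgeR adjusted p below 0.05), 19.2% lower and 20.1% higher. The part of sex or of other cell types in the differences below was not tested, and in bulk RNA fewer cells of one type and less RNA per cell cannot be told apart.

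The heat shock genes as a group made up 0.372, 0.374 and 0.413% of all counts in the WT libraries and 0.323, 0.320 and 0.320% in those labelled cKO. Their summed level was 3729, 3753 and 4209.7 CPM in WT and 3201, 3182 and 3181 CPM in labelled cKO, after scaling between libraries by the trimmed mean of M values (TMM). The third WT library was the highest and the groups did not overlap. Hsp90ab1, Hspa8 and Hsp90aa1, with WT means of 1525, 1267 and 652 CPM, made up most of this sum, so it says little of the other members. Per gene, 5 of the 10 were lower in the libraries labelled cKO (Hsp90aa1, Hsp90ab1, Hspa1b, Hspa8 and Hspb1) and 1 was higher (Hsph1) at an adjusted p below 0.05 in edgeR's quasi-likelihood test, while Dnajb1, Bag3, Hsf1 and Hspa1a did not pass. Over all tested genes 39.3% passed in either direction, 19.2% lower and 20.1% higher. With a log2 fold change of at least 1 in size, 0 of the 10 passed by edgeR, DESeq2 or limma-voom, or at an unadjusted p below 0.05, while 11.2% of all tested genes did. The groups did not overlap for 7 of the 10 genes, 6 of them lower and 1 higher in labelled cKO, against 49.2% of all tested genes in either direction and 23.9% in the lower one. The median log2 fold change of the 10 genes was -0.17, with 8 below 0, beside a median of 0.0077 over all tested genes.

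**Figure D1:**
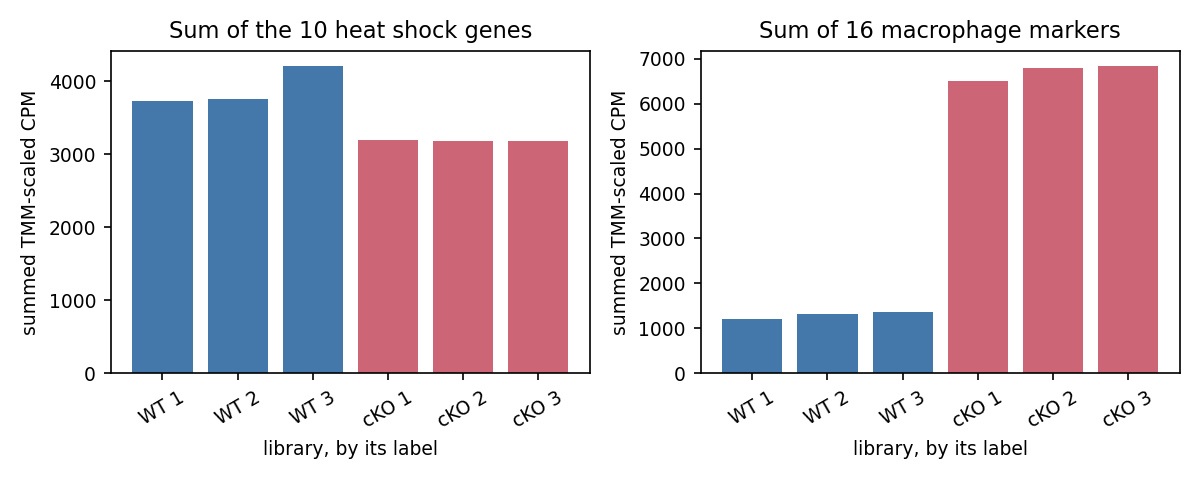
Summed level of the 10 heat shock genes (left) and of 16 macrophage markers (right), in TMM-scaled CPM, with 1 bar for each library. The heat shock genes reached 3729 to 4209.7 CPM in WT and 3181 to 3201 CPM in the libraries labelled cKO, and the macrophage markers 1209.5 to 1364 and 6515 to 6838 CPM.

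The members differed widely in level. Per kilobase of the deposited gene length, the level in the WT libraries was 508 ± 40.3 for Hsp90ab1, 294 ± 23.3 for Hspa8 and 166 ± 9.02 for Hsp90aa1 (CPM per kilobase, SD, n = 3). These were the most highly expressed members on this scale. Next came Bag3 at 48.7 ± 1.83, Hspb1 at 38.9 ± 1.61, Hsph1 at 23.8 ± 1.48 and Dnajb1 at 14.3 ± 0.527 CPM per kilobase. The heat-inducible Hspa1b at 9.92 ± 1.27 and Hspa1a at 4.26 ± 1.17, and the factor Hsf1 at 4.13 ± 0.0692 CPM per kilobase, were at the bottom. The order by mean was the same in the libraries labelled cKO, from 388 ± 1.71 for Hsp90ab1 to 4.06 ± 0.365 CPM per kilobase for Hsf1. Neighbours in that order whose libraries overlapped were Hspa1a and Hsf1 in both groups, and Hspb1 (33.9 ± 2.27) and Hsph1 (31.2 ± 1.21) in labelled cKO. The deposited lengths of Hspa8 (4301 bases) and Hsf1 (7099 bases) exceed those of their canonical transcripts in GENCODE vM39 (2394 and 5137 bases), and the order depends on this choice. On canonical transcript length, an alternative chosen after seeing the data, Hspa8 at 529 ± 41.8 overlapped Hsp90ab1 at 564 ± 44.7 CPM per kilobase in WT and was above it in labelled cKO (454 ± 3.82 against 430.5 ± 1.90), and Hsf1 at 5.71 ± 0.0956 was above Hspa1a at 4.26 ± 1.17 CPM per kilobase in WT. Hspa1b stayed above both on that length. Hspa1a and Hspa1b share part of their sequence (38.1 and 40.5% of their 150-base stretches). Their reads cannot all be assigned, so the levels of both and their places in this order are uncertain.

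**Figure D2:**
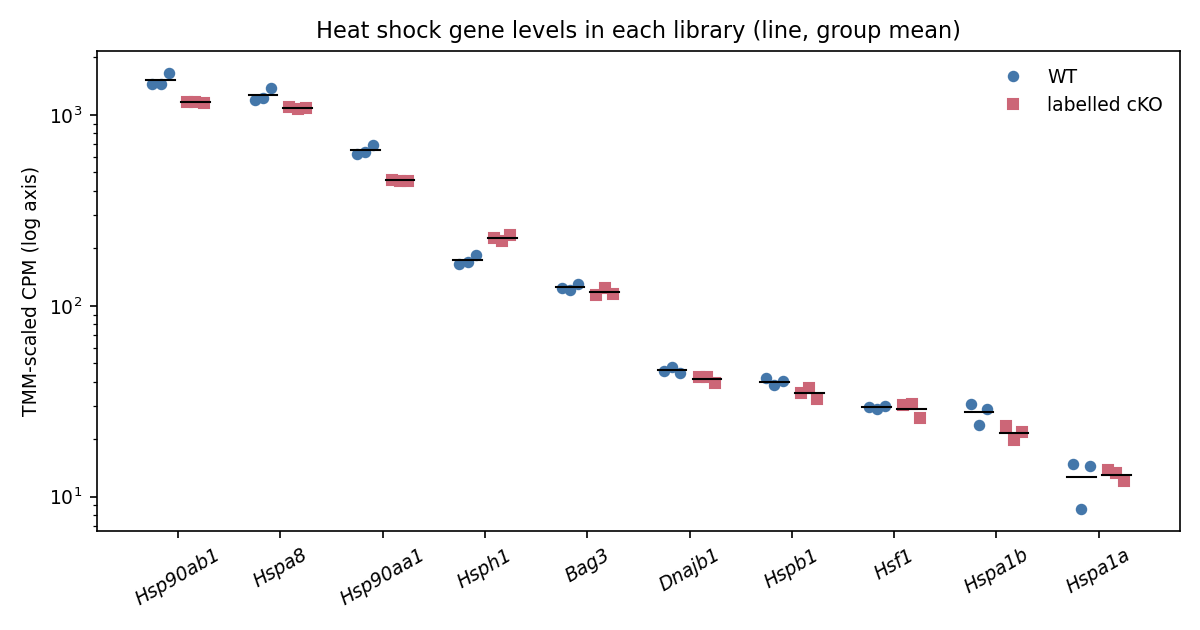
Level of each heat shock gene in every library in TMM-scaled CPM on a log axis; each point is a library (3 per group) and the line is the group mean. Hsp90aa1, Hsp90ab1, Hspa8, Hspa1b, Hspb1 and Dnajb1 were lower in every library labelled cKO than in every WT library, and Hsph1 was higher. Of these, Dnajb1 did not pass the test.

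Both HSP90 genes were lower in the libraries labelled cKO. Hsp90aa1 (chr12:110657039-110669162, minus strand, mm39) encodes the stress-inducible cytosolic HSP90 alpha. It was at 623, 642 and 692 CPM in the WT libraries and at 458, 449 and 453 CPM in those labelled cKO. The labelled cKO libraries were all below the WT libraries and lay within a narrow range. Hsp90aa1 fell by 30.5% (log2 fold change -0.53, SE 0.041, 95% confidence interval -0.61 to -0.44, edgeR adjusted p = 8.89e-09). Hsp90ab1 (chr17:45878701-45884197, minus strand) encodes the constitutive HSP90 beta. It was at 1459, 1451 and 1664 CPM in WT and at 1163, 1169 and 1159 CPM in labelled cKO. Again no library overlapped, the third WT library was the highest, and the coefficient of variation was 7.93% in WT and 0.440% in labelled cKO. Hsp90ab1 fell by 23.7% (log2 fold change -0.39, SE 0.044, interval -0.48 to -0.30, edgeR adjusted p = 1.26e-06). Both genes kept their call and direction under all 16 alternative fits, and without the third WT library their log2 fold changes were -0.49 and -0.33.

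The ratio of both HSP90 forms within a library does not depend on the scaling between libraries. Per kilobase, Hsp90aa1 was 32.6, 33.8 and 31.7% of Hsp90ab1 in the WT libraries and 30.0, 29.3 and 29.8% in those labelled cKO. All 3 labelled cKO libraries were below all 3 WT libraries, with means of 32.7 ± 1.03 and 29.7 ± 0.366% (SD, n = 3). The difference of the log2 ratio was -0.14, with a two-sided exact permutation p of 0.1, which is the smallest that 3 libraries against 3 can give.

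In the HSP70 family, the constitutive and the inducible forms were measured separately. Hspa8 (chr9:40712280-40721383, plus strand) encodes the constitutive cytosolic HSC70, which also uncoats clathrin vesicles. It was at 1197, 1222 and 1381 CPM in WT and at 1096, 1078 and 1087 CPM in labelled cKO. The groups did not overlap, and the third WT library stood highest. Hspa8 fell by 14.2% (log2 fold change -0.22, SE 0.045, interval -0.31 to -0.13, edgeR adjusted p = 0.000659). Without the third WT library its log2 fold change was -0.16 (edgeR adjusted p = 5.04e-05).

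Hspa1b (chr17:35175412-35178214, minus strand) and Hspa1a (chr17:35188166-35191132, minus strand) encode the stress-inducible HSP70. They are single-exon genes with 9951 bases between them. Hspa1b was at 30.7, 23.9 and 28.8 CPM in WT and at 23.4, 19.8 and 21.7 CPM in labelled cKO. The lowest WT library was just above the highest one labelled cKO, so the groups did not overlap. Hspa1b fell by 22.1% (log2 fold change -0.36, SE 0.094, interval -0.56 to -0.16, edgeR adjusted p = 0.00503). Hspa1a was at 14.8, 8.62 and 14.5 CPM in WT and at 13.9, 13.3 and 12.0 CPM in labelled cKO. The second WT library was the lowest of all 6 and the groups overlapped, with a coefficient of variation of 27.5% in WT. Hspa1a did not pass (log2 fold change 0.05, SE 0.154, interval -0.27 to 0.38, edgeR adjusted p = 0.827), and without the second WT library the value was -0.17 (edgeR adjusted p = 0.232). These genes are near copies: 38.1% of all 150-base stretches of the Hspa1a transcript occurred letter for letter in that of Hspa1b, and 40.5% the other way, so their reads cannot all be assigned and both counts are uncertain. With the counts of both summed to 1 feature, the log2 fold change was -0.22 and no longer passed (edgeR adjusted p = 0.0859). By the deposited coordinates, the gene Gm20481 overlaps Hspa1a on the opposite strand by 2225 bases and had 17 to 48 counts per library. In GENCODE vM39, genes on the opposite strand also overlap other members. Among them are the protein-coding Slc35b2 at Hsp90ab1, and Bop1 and Dgat1 at Hsf1. The libraries are strand-specific, while the strand setting of the counting is not given in the sources used here.

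The summed inducible HSP70 (Hspa1a plus Hspa1b) was 5.73, 4.02 and 4.72% of Hspa8 per kilobase in the WT libraries and 5.11, 4.60 and 4.67% in those labelled cKO. The groups overlapped, with means of 4.82 ± 0.861 and 4.79 ± 0.277% (SD, n = 3), and the exact permutation p was 1. On canonical transcript length the means were 2.69 ± 0.479 and 2.67 ± 0.154%, so the percentage depends on the length used for Hspa8 while the difference between groups does not. The percentage also depends on how reads shared by Hspa1a and Hspa1b were counted. The ratio of Hspa1b to Hspa1a, chosen after its values were seen and not tested, was 220.3, 293 and 211% in WT and 179, 158 and 191% in labelled cKO. All 3 libraries labelled cKO were below all 3 WT libraries.

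Matches to short heat shock element motifs in these promoters show what the inducible HSP70 genes share in sequence. RefSeq promoter windows, whose table is on GRCm38.p6 and which were placed on GRCm39 by exact match, were found for 6 of the 10 members: Hspa1a, Hspa1b, Hsph1, Dnajb1, Hspb1 and Bag3. Hspa8, Hsp90aa1, Hsp90ab1 and Hsf1 were not among them. A window was searched for GAANNTTC and TTCNNGAA, short arrangements of inverted GAA units as found in sites that heat shock factors bind. Both motifs read the same on either strand, and overlapping matches were counted. Within 250 bases before the start, 4 of the 6 genes held at least 1 match, beside 14.5% of 27025 genes in the table, and with 50 further bases after the start it was 5 of 6 beside 17%. The 250 bases before the start of Hspa1a (chr17:35191133-35191382) and of Hspa1b (chr17:35178215-35178464), both on the minus strand of GRCm39, are shown because they are nearly identical, with the same letter at 247 of 250 positions (98.8%). Capitals mark the match to GAANNTTC, at bases -104 to -97 from the start in both.
Hspa1a: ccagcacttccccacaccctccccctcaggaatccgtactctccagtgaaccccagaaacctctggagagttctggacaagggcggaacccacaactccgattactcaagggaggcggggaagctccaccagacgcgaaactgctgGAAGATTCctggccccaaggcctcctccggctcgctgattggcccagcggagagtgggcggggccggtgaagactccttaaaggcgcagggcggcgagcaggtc
Hspa1b: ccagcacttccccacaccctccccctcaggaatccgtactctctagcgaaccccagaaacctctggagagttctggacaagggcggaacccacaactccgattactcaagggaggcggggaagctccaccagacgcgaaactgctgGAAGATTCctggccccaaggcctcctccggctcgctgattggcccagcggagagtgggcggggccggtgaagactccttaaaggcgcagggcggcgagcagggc
These upstream windows hold the same single match. Whether the genotype difference of Hspa1b differs from that of Hspa1a was not tested. A match is a run of letters and says nothing about binding in these cells.

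**Figure D3:**
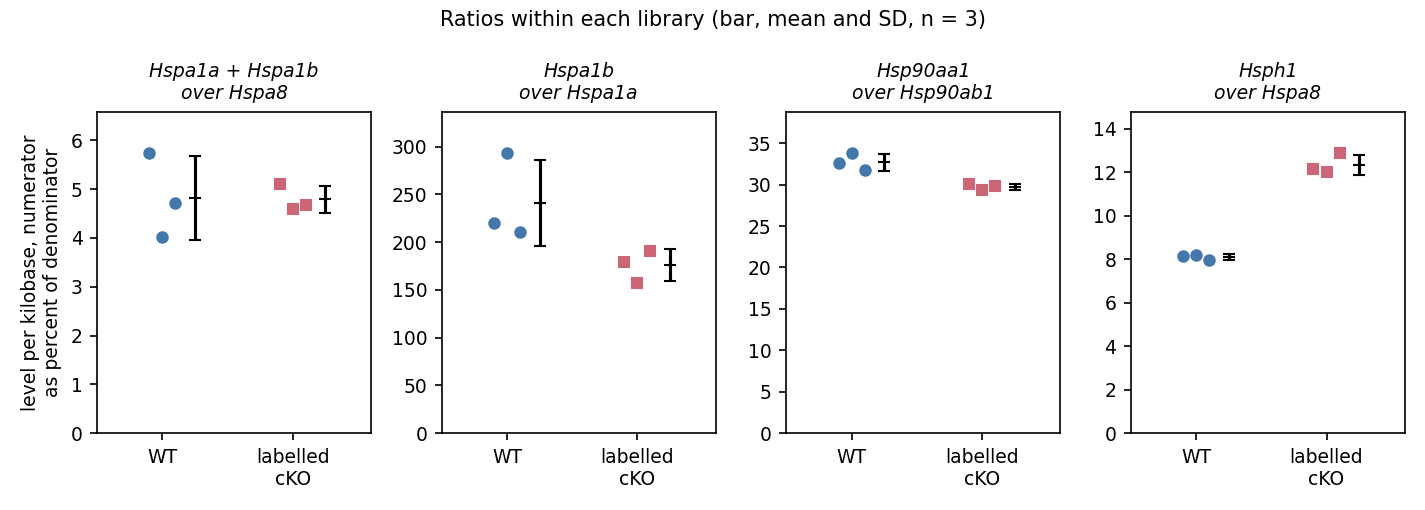
Ratios of heat shock genes within each library, as percent of the denominator on levels per kilobase; points are libraries and bars show mean and SD (n = 3). The inducible HSP70 ratio overlapped between the groups, while Hsp90aa1 over Hsp90ab1 was lower (29.3 to 30.0% against 31.7 to 33.8%) and Hsph1 over Hspa8 higher (12.0 to 12.9% against 7.94 to 8.20%) in every library labelled cKO.

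Hsph1 was the only member that passed the test as higher in the libraries labelled cKO. Hsph1 (chr5:149537752-149559841, minus strand) encodes HSP110, an HSP70 relative that acts as its nucleotide exchange factor and helps to dissolve aggregates. It was at 165, 169 and 185 CPM in WT and at 225, 219 and 236 CPM in labelled cKO. All libraries labelled cKO were above all WT libraries. Hsph1 rose by 31.0% (log2 fold change 0.39, SE 0.049, interval 0.29 to 0.49, edgeR adjusted p = 4.18e-06), and the call held under all 16 alternative fits. Relative to Hspa8, Hsph1 went from 8.14, 8.20 and 7.94% per kilobase in WT to 12.2, 12.0 and 12.9% in labelled cKO, a ratio chosen after its values were seen and given without a test (means of 5.30 ± 0.0909 and 8.08 ± 0.298% on canonical transcript length). A stretch of 30 bases before a RefSeq start of Hsph1 (chr5:149559816-149559845, minus strand, GRCm39) is shown for the motif match it holds. The match to TTCNNGAA is in capitals, at bases -33 to -26 from that start.
Hsph1: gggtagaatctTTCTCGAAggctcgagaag
A pair of overlapping matches, TTCTGGAA and GAAAGTTC, followed at bases 36 to 43 and 41 to 48 after that start. Hsph1 had 2 RefSeq windows. From the other start the match in capitals was at bases -54 to -47 and the pair at 15 to 22 and 20 to 27. The match in capitals lies inside the deposited span of Hsph1, so on that annotation it is not before the gene.

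Neither of the other partners of the HSP70 cycle among the members passed the test. Bag3 (chr7:128125340-128148705, plus strand), which links HSP70 to small heat shock proteins and to selective autophagy, was at 124, 120.5 and 129.7 CPM in WT and at 114, 124 and 115 CPM in labelled cKO. The second library labelled cKO lay within the WT range. The difference did not pass (log2 fold change -0.08, SE 0.048, interval -0.19 to 0.02, edgeR adjusted p = 0.193). Dnajb1 (chr8:84334822-84339282, plus strand), the main J-domain partner of inducible HSP70, was at 45.3, 47.8 and 44.5 CPM in WT and at 42.6, 42.2 and 39.4 CPM in labelled cKO. The groups did not overlap, yet the highest library labelled cKO was close to the lowest WT library. Dnajb1 missed the threshold narrowly (log2 fold change -0.15, SE 0.058, interval -0.27 to -0.03, edgeR adjusted p = 0.0505). Of the fits that left out a single library, it passed only without the third WT library (edgeR adjusted p = 0.0263). The others gave an edgeR adjusted p of 0.0528 to 0.216. The windows of Dnajb1 held no match to either motif, and the Bag3 window held GAAGTTTC at bases 42 to 49 after the start. The upstream part of the second Dnajb1 window (chr8:84334927-84335176, GRCm39) lies inside the deposited span of Dnajb1. On that annotation it is not before the gene.

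Hspb1 (chr5:135916773-135918417, plus strand) encodes HSP27, a small heat shock protein that holds unfolding proteins without using ATP. It was at 41.8, 38.4 and 40.1 CPM in WT and at 35.1, 37.3 and 32.6 CPM in labelled cKO. The groups did not overlap, though the second WT and second labelled cKO libraries were close. Hspb1 fell by 12.8% (log2 fold change -0.20, SE 0.065, interval -0.34 to -0.06, edgeR adjusted p = 0.0228). The call rested on single libraries: it was lost without the first WT library (edgeR adjusted p = 0.0690), without the first one labelled cKO (edgeR adjusted p = 0.0610) and without the third one labelled cKO (edgeR adjusted p = 0.138). The 250 bases before its start (chr5:135916523-135916772, plus strand, GRCm39) are shown because they hold 2 matches to GAANNTTC, in capitals at bases -117 to -110 and -97 to -90.
Hspb1: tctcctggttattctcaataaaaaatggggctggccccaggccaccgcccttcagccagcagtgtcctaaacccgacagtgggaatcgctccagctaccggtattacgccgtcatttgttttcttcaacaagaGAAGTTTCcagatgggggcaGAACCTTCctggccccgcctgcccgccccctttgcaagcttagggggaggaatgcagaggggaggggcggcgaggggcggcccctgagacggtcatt
No other member with a window held 2 matches before the start.

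Hsf1 (chr15:76361622-76386113, plus strand), the factor that activates these genes, was at 29.5, 28.8 and 29.7 CPM in WT and at 30.1, 30.5 and 25.8 CPM in labelled cKO. The WT libraries lay inside the range of those labelled cKO, and the third library labelled cKO was the lowest of all 6. The mRNA level did not pass the test (log2 fold change -0.03, SE 0.074, interval -0.18 to 0.13, edgeR adjusted p = 0.818). Hsf1 is regulated mainly at the protein level, which these data do not measure. It lies 622364 bases from Gsdmd on chromosome 15.

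**Figure D4:**
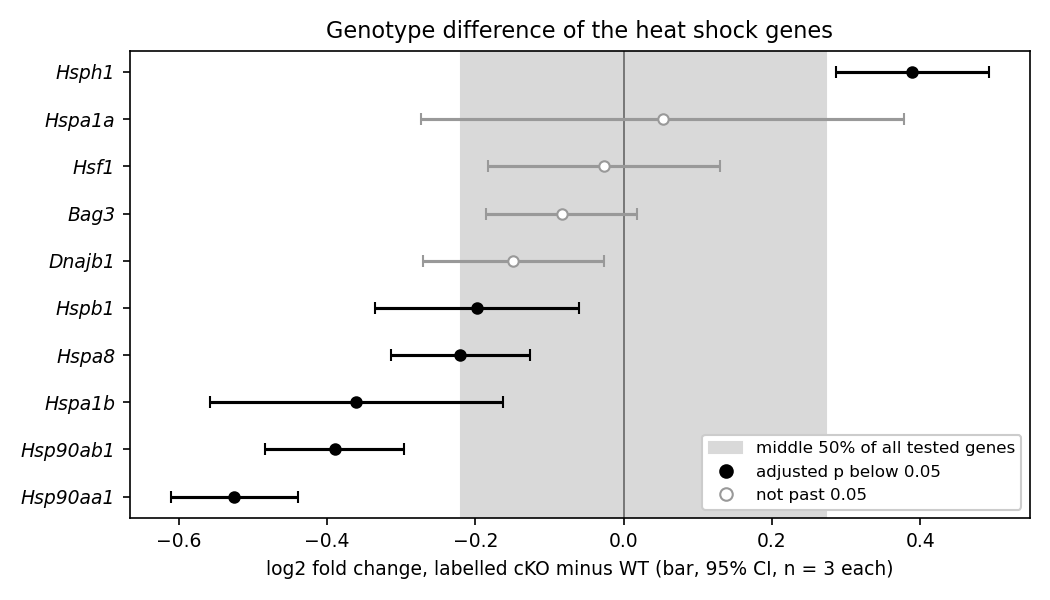
Log2 fold change (labelled cKO minus WT) of each heat shock gene with its 95% confidence interval, over the middle 50% of all tested genes (-0.22 to 0.27) as a grey band. Filled points passed at an adjusted p below 0.05: Hsp90aa1, Hsp90ab1, Hspa1b, Hspa8 and Hspb1 below 0 and Hsph1 above 0.

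Other genes of the cytosolic chaperone system were taken as lists by family. Together 70 of 73 were tested, 18 were lower and 5 higher in the libraries labelled cKO, and their median log2 fold change was -0.04. The called share was 32.9%, below the 39.3% of all tested genes, with 25.7% lower beside 19.2% and 7.14% higher beside 20.1%. The clearest family was the TRiC chaperonin, the ring that folds actin and tubulin: all 8 subunits were lower, with log2 fold changes from -0.41 for Tcp1 to -0.18 for Cct8. Tcp1 was at 244, 249 and 246 CPM in WT and at 188, 184 and 183 CPM in labelled cKO, without overlap (edgeR adjusted p = 1.12e-07). Of the 6 subunits of prefoldin, which hands substrates to TRiC, 0 passed in edgeR and DESeq2 and 1 in limma-voom, and 1 had an unadjusted p below 0.05.

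Of 7 other HSP70 and HSP110 genes, 4 (57.1%) were lower, beside 19.2% of all tested genes, with a median log2 fold change of -0.19. These were Hspa12b (log2 fold change -0.88), Hspa2 (-0.35), Hspa12a (-0.32) and the HSP110 relative Hspa4 (-0.19). Hspa4l, a further HSP110 relative, was at 74.4 ± 4.72 and 77.1 ± 4.67 CPM and did not pass (edgeR adjusted p = 0.511). Of 15 other J-domain genes, 2 were higher (Dnajc7 at a log2 fold change of 0.20 and Dnajb6 at 0.16) and 1 lower (Dnajc5, the synaptic vesicle co-chaperone, at -0.35), which is 20% of the list. Among 5 tested small heat shock genes, Cryab alone passed. Cryab, which encodes alpha-B-crystallin, was at 124, 131 and 121 CPM in WT and at 58.1, 59.2 and 59.8 CPM in labelled cKO (log2 fold change -1.09, SE 0.048, edgeR adjusted p = 4.54e-12). Of 6 further BAG proteins and nucleotide exchange factors, Bag2 alone passed, at 48.9 ± 0.863 CPM in WT and 25.9 ± 4.15 CPM in labelled cKO (log2 fold change -0.92, edgeR adjusted p = 1.57e-07). Both genes were lower in every library labelled cKO.

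Among 20 co-chaperones of HSP90 and HSP70, 3 were lower and 3 higher. That is 15% in each direction, beside 19.2% lower and 20.1% higher over all tested genes. Lower were Stip1 (log2 fold change -0.22), which bridges HSP70 and HSP90, the kinase adaptor Cdc37 (-0.19) and St13 (-0.17). Higher were Fnip2 (1.38), Cdc37l1 (0.20) and Ahsa1 (0.14), the activator of HSP90 ATP hydrolysis. The list of other heat shock factors and their regulators gave 0 calls, also at an unadjusted p below 0.05, among 3 tested of 5 in edgeR and limma-voom and all 5 in DESeq2. Hsf2 had a log2 fold change of 0.15 (edgeR adjusted p = 0.204) and Hsf4 of 0.33 (edgeR adjusted p = 0.143).

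**Figure D5:**
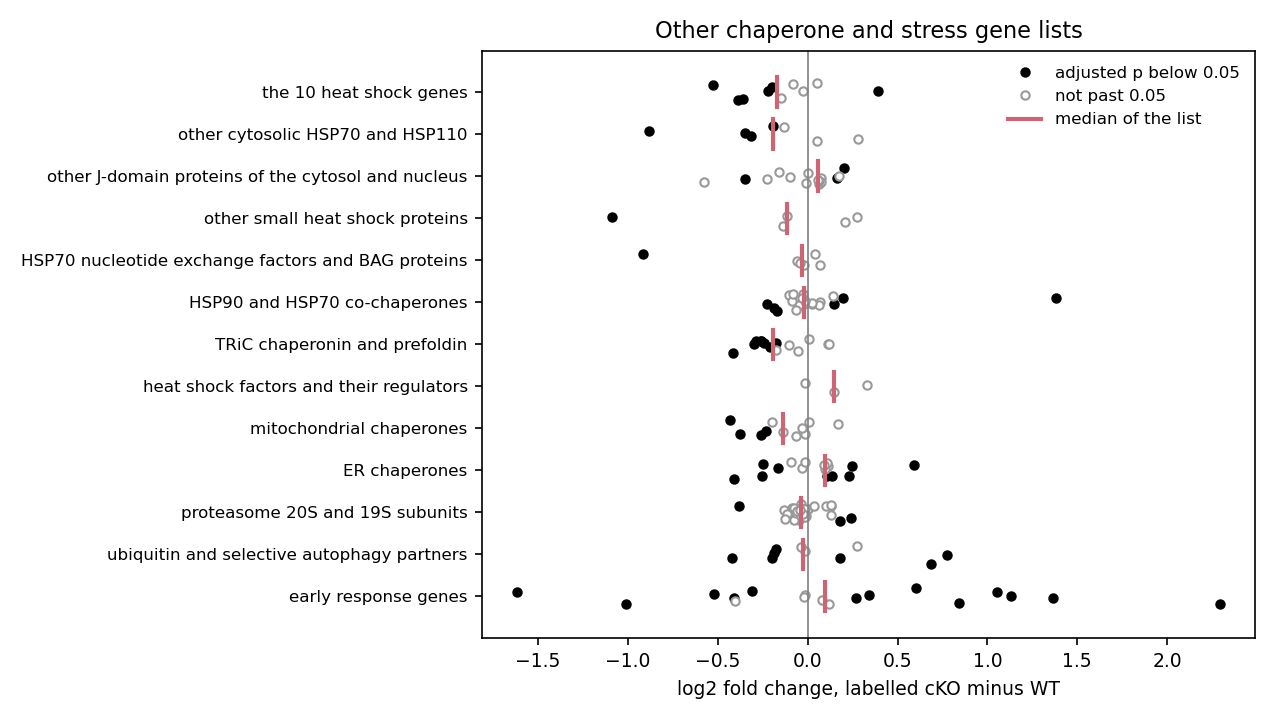
Log2 fold change (labelled cKO minus WT) of every tested gene in the heat shock group and in other chaperone and stress lists; filled points passed at an adjusted p below 0.05 and the red bar is the median of the list. The medians were -0.17 for the 10 heat shock genes, -0.19 for TRiC with prefoldin, -0.14 for mitochondrial chaperones and 0.09 for ER chaperones.

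Chaperones of other compartments were measured in the same libraries, beside the 39.3% called over all tested genes. Of 11 mitochondrial ones, 4 (36.4%) were lower, with Lonp1 at a log2 fold change of -0.43, the mitochondrial HSP70 Hspa9 at -0.38, its exchange factor Grpel1 at -0.26 and the chaperonin Hspd1 at -0.23. Of 16 in the endoplasmic reticulum, 5 were higher and 4 lower (56.2% in all), with a median of 0.09. The HSP110 relative of that compartment, Hyou1, was higher (log2 fold change 0.25, edgeR adjusted p = 0.000276), as was the HSP70 Hspa5 (0.11, edgeR adjusted p = 0.0127), while the HSP90 Hsp90b1 was lower (-0.26, edgeR adjusted p = 6.54e-06) and so was the collagen chaperone Serpinh1 (-0.41, edgeR adjusted p = 4.11e-08). Of 31 proteasome subunits, 2 were higher and 1 lower (9.68% in all). Among 10 ubiquitin and selective autophagy partners 4 were lower and 3 higher (70% in all). The autophagy receptor Sqstm1 led the lower ones (log2 fold change -0.42), and Synpo2 (0.78), a Bag3 partner in muscle, was among the higher. Of 18 early response genes, 8 were higher and 5 lower (72.2% in all). The higher ones included Fos (log2 fold change 2.29) and Atf3 (1.36), and the lower ones Egr2 (-1.62).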

How the data were processed

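Total RNA of 6 libraries (3 per group) was prepared with a directional kit and sequenced as 150-base read pairs. By the submitters' processing notes, the deposited counts per gene were made with HISAT2 2.0.5 on GRCm39 (mm39) and featureCounts 1.55.0-p3. The methods of the paper name another featureCounts version and also RSEM, so the tool behind the counts is not certain. The annotation and the strand setting are not given in the sources used here. Gene lengths were those of the deposited table. The 10 members and all lists were chosen with earlier results of these data known.

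Counts were fitted over all genes with edgeR 4.0.16 (R 4.3.3): filterByExpr, TMM, glmQLFit and glmQLFTest, labelled cKO against WT without covariates, with Benjamini-Hochberg adjustment over 17146 genes and calls at an adjusted p below 0.05. Total counts per library (39566835 to 49734046) left each member with at least 428 counts in every library. Levels are CPM on TMM-scaled library sizes, and levels of different genes are divided by the deposited gene length, with the canonical transcript length of GENCODE vM39 as an alternative added after seeing the data. Ratios of paralogs were compared by two-sided exact permutation. All 10 members are named, with Gsdmd, sex-linked genes, and from each further list the defining markers and at most 4 called genes per direction. Genes named without a call were chosen after their values were seen. On simulated counts of 16820 genes with 200 changed, 89 of 100 genes changed by a log2 of 2 and 49 of 100 changed by 0.5 were recovered, with 12 unchanged genes called. The changed genes were drawn at any level, and their share was far below the 39.3% called in the data. These rates therefore do not give the power for the members. Alternatives were other normalizations, filters, tests (DESeq2 1.42.0, limma-voom 3.58.1), a replicate block, leaving out each library, halved counts and summed Hspa1a and Hspa1b.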

Additional observations from a re-analysis of the deposited data

How the results depend on the processing

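Hsp90aa1, Hsp90ab1, Hspa8 and Hsph1 kept their direction and their call under all 16 alternative fits, with log2 fold changes of -0.59 to -0.49, -0.46 to -0.33, -0.29 to -0.16 and 0.32 to 0.44. Leaving out 1 library at a time gave 4 to 6 members lower and 1 higher, 18 to 21 other cytosolic chaperone genes lower and 3 to 6 higher, 8 TRiC subunits lower, and 5738 to 6782 genes called (2942 to 3407 higher, 2796 to 3375 lower). The lowest count of other cytosolic genes called higher, 3 in place of 5, came without the second library labelled cKO. With a log2 fold change of at least 1 in size, 1920 genes were called (1124 higher, 796 lower), 0 members in either direction, 1 other cytosolic gene lower and 1 higher, and 0 TRiC subunits. Upper quartile normalization moved the median of all genes from 0.0077 to -0.06 and the calls to 2799 higher and 4294 lower, from 3445 and 3285, with 7 members lower, now including Dnajb1 (edgeR adjusted p = 0.00655) and Bag3 (edgeR adjusted p = 0.0146), and 2 other cytosolic genes higher.

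Hspa1a (log2 fold change 0.05) changed sign with upper quartile normalization (-0.0146), when summed with Hspa1b (-0.219) and without the second WT library, with a range of -0.174 to 0.168 over the left-out libraries. Hsf1 (-0.03) changed sign without the third library labelled cKO, with a range of -0.0706 to 0.0481. Neither passed in any of these. Dnajb1 was called under 7 of 16 alternatives, with adjusted p from 0.00655 to 0.216. The cause of these shifts was not tested.

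With the replicate number as a block, 6396 genes were called (3298 higher, 3098 lower), with 5 members lower and 1 higher, 18 other cytosolic genes lower and 4 higher, and no call of a member changed. Deviations of same-numbered libraries from their group means correlated at -9.23e-05, 0.00116 and -0.0136. Those of differently numbered libraries correlated at -0.0148 to 0.0152. Same-numbered libraries thus did not stand out, which does not exclude that they were paired. Depth left the members well covered, the lowest count being 428 for Hspa1a, and 3 libraries per group limited ratios to an exact p of 0.1.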
